A study of Pimephales promelas with 28 samples.

Results

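The comparison described here is the time step from 24 h to 72 h in fathead minnow (Pimephales promelas) liver exposed to phenanthrene. Its members are the 9 arrays labelled with phenanthrene as the agent and one of these times, 5 at 24 h and 4 at 72 h, out of 28 arrays in the series. The fish of these groups were labelled female and sexually regressed, and total liver RNA was hybridised with Cy3, 1 sample per array. The exposed arrays carry a labelled dose of 29 ng/L and the control arrays, labelled with no agent, a dose of 0 ng/L. The control groups set beside them hold 4 arrays at 24 h and 5 at 72 h, and 5 exposed and 5 control arrays at 48 h entered the estimate of spread. The labels do not say whether each array came from a separate fish, so the p-values measure the spread between arrays, which may be technical.

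Phenanthrene is a polycyclic aromatic hydrocarbon of crude oil and combustion products. The liver is the main organ that oxidises and conjugates such compounds, largely through cytochrome P450 and transferase enzymes, and some members of the class switch on CYP1A, a cytochrome P450, through the aryl hydrocarbon receptor. In egg-laying fish the liver also makes vitellogenin, the egg yolk precursor, in females under estrogen. No probe could be tied to any of these genes: the array names probes by contig and expressed sequence tag, and 0 of 15208 probe identifiers matched a gene of the reference table used here. The transcripts are therefore given by probe name, and neither hepatocyte markers nor the pathway lists could be checked.

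Both times held an array that stood apart from the rest of its group in its number of detected probes. Exposed 24 h replicate 3 had 5127 probes well above background, the scanner software's detection mark, against 9216 to 10409 on the other 24 h arrays. Exposed 72 h replicate 4 had 8865 such probes against 10827 to 11202, and its bright-corner control spots read 19.0 on the log2 scale against 10.9 to 11.1. That array also carried 498 spots marked non-uniform, which were left out, against 2 to 12 on the other 72 h arrays. On exposed 24 h replicate 3 the dimmest detected probe lay at -1.26, in log2 units relative to the array's own 75th percentile, while on the other 24 h arrays it lay between -5.41 and -3.95. Transcripts dimmer than that could not be measured on that array, so its values near -3.3 for dim probes are a bound. In a two-sided exact permutation test over the 9 arrays, neither the number of detected probes (10463 ± 1077 at 72 h, SD, n = 4, and 9017 ± 2228 at 24 h, SD, n = 5; p = 0.286, adjusted p = 0.381 over 4 measures) nor the 75th percentile of signal (p = 0.262, adjusted p = 0.381) separated the times. Both arrays enter the values below, and each main result is also given without them.

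**Figure D1:**
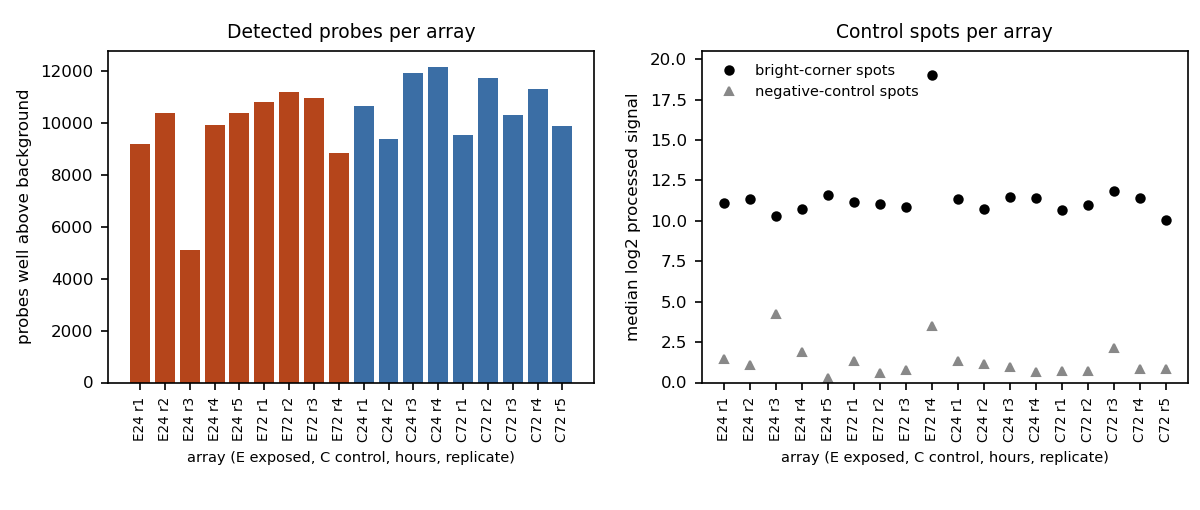
Left, bars give the number of probes well above background on each of the 18 exposed and control arrays at 24 h and 72 h. Right, points give the median log2 processed signal of the bright-corner and negative-control spots of the same arrays. Exposed 24 h replicate 3 has the shortest bar, at 5127 probes, and exposed 72 h replicate 4 has bright corners at 19.0.

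In all, 3 transcripts passed the test between the exposed times. All 3 were dim, and each was lower at 72 h. UF_Ppr_AF_106564 and UF_Ppr_AF_102490 were admitted to the test only through detection in the exposed 24 h group, where they are high, so that choice favours a lower 72 h level for both. The fit was limma on log2 signal relative to each array's 75th percentile, over 11492 probes detected on at least 3 arrays of a group. A probe passed at a Benjamini-Hochberg adjusted p under 0.05. The 3 probes are 0.0261% of those tested, and 0 passed as higher. At an unadjusted p under 0.05, 913 probes (7.94%) differed, 305 higher and 608 lower at 72 h. In whole liver, fewer cells of a type and less RNA per cell cannot be told apart.

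UF_Ppr_AF_106564 had the smallest p. At 24 h its levels in replicates 1 to 5 were -4.82, -3.75, -3.28, -4.45 and -4.88, and at 72 h those in replicates 1 to 4 were -6.92, -7.32, -6.84 and -6.76. Every 72 h array read below every 24 h array. The level of undetected 24 h replicate 3 is a bound, so the separation from that array is not settled. The scanner software detected the transcript on 3 of 5 arrays at 24 h but on none of the 4 (0) at 72 h. There its raw signal was 1.01 to 1.11 times the median of the negative-control spots, against 1.02 to 8.58 times at 24 h. The difference of the measured levels was -2.73 ± 0.37 (SE; limma adjusted p = 0.00116). Because the 72 h signal sat at background, the fold is given only as a lower-bound ratio. It sets the 24 h mean against the mean of the dimmest detected levels of the 72 h arrays. That ratio was 1.41 with undetected 24 h replicate 3 left out of the 24 h mean, and 1.66 with it. Replicate 1 at 24 h, also undetected, stayed in the mean at its read level of -4.82. The dimmest detected level of that array was -3.95, so the bound is approximate. At 48 h the exposed level was -6.30 ± 0.34 (SD, n = 5), and the transcript was detected on 0 of those 5 arrays. Exposed 48 h replicates 1 to 4 lay on slides 3 and 4. All 24 h and 72 h arrays lay on other slides and were scanned on another day. The mean 48 h level thus cannot be told apart from slide and scan day. Only exposed 48 h replicate 5 shared a slide, slide 5, and the scan day with arrays of the other times. It read -6.19 there, beside -4.88 on 24 h replicate 5 and -6.84 and -6.76 on 72 h replicates 3 and 4. In the controls the same step was -1.26 ± 0.37 (SE; limma adjusted p = 0.964), and again no 72 h array overlapped a 24 h array. The exposed step differed from the control step by -1.47 ± 0.53 (SE; limma adjusted p above 0.99, as for every probe of that comparison), so the step of this transcript was not shown to be particular to exposed liver.

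UF_Ppr_AF_102490 gave the largest difference of the 3. Its 24 h levels were -4.85, -2.51, -3.09, -3.05 and -1.98, and its 72 h levels were -6.53, -7.11, -6.77 and -6.72. The read levels of the groups did not overlap, with undetected 24 h replicate 3 again a bound. The difference was -3.69 ± 0.66 (SE; limma adjusted p = 0.0355). At 72 h it was detected on 0 arrays, and the lower-bound ratio was 3.66 with or without 24 h replicate 3. Replicate 1 at 24 h, undetected as well, stayed in that mean, so this bound is approximate too. At 24 h the transcript was detected on 3 of 5 exposed arrays but on 1 of 4 control arrays. The control step of this transcript was -1.13 ± 0.66 (SE; limma adjusted p = 0.964), with detection on 0 of 5 control arrays at 72 h. The difference of the steps was -2.56 ± 0.93 (SE) and did not pass. The step was thus not shown to be particular to exposed liver. UF_Ppr_AF_104920 read -3.66, -3.60, -3.22, -3.82 and -2.57 at 24 h and -6.87, -4.85, -6.46 and -6.73 at 72 h. Its difference was -2.85 ± 0.52 (SE; limma adjusted p = 0.0355), and at 72 h only replicate 2, the highest of the 4, was detected. The other 72 h arrays, at 1.07 to 1.44 times the negative controls, and 24 h replicate 3, at 1.06 times, sat at background, so the size of this difference is not settled and no bound is given. Its control step was -0.07 ± 0.52 (SE), and the difference of the measured steps did not pass the adjusted threshold.

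**Figure D2:**
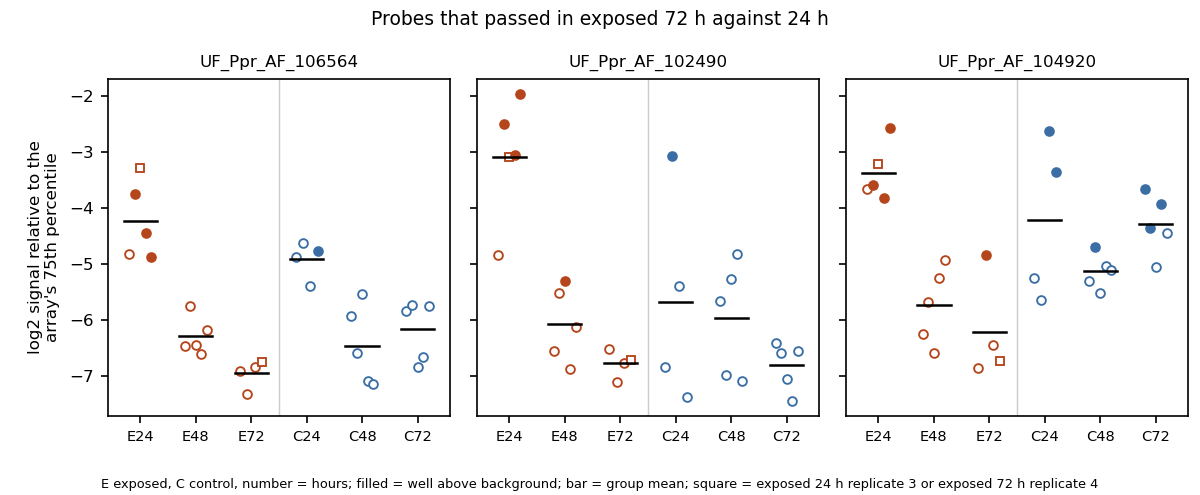
Each point is 1 array, with log2 signal relative to the array's 75th percentile on the y axis and the 6 groups on the x axis; filled points are well above background, bars are group means, and squares mark exposed 24 h replicate 3 and exposed 72 h replicate 4. In all 3 probes the exposed 72 h points lie below every exposed 24 h point, and only 1 of these 72 h points is filled.

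Of the 3, UF_Ppr_AF_106564 alone passed with exposed 24 h replicate 3 and exposed 72 h replicate 4 left out (-2.55 ± 0.40, SE; limma adjusted p = 0.0167). That is 0.0087% of the probes tested. UF_Ppr_AF_102490 (-3.71, adjusted p = 0.252) and UF_Ppr_AF_104920 (-2.65, adjusted p = 0.461) kept their size but not the call. With single exposed arrays left out in turn, UF_Ppr_AF_106564 passed each time and the count was 1 or 2. With a normexp background correction, whose offset compresses dim signals, 0 probes passed, and the 3 differences were -0.69, -0.91 and -0.92. The 9 arrays lay on 3 slides, each with both times. Within slides 1, 2 and 5 the difference of UF_Ppr_AF_106564 was -2.63, -3.46 and -1.92. As its read levels did not overlap between the times, the shared sign was fixed in advance. The slide 2 value also includes undetected 24 h replicate 3. With slide as a fixed block the difference was -2.69 (limma adjusted p = 0.00471).

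The number of transcripts that differed without adjustment varied most with exposed 72 h replicate 4. Leaving out that array alone took the count from 913 to 443, and leaving out both arrays gave 538 (4.68%), 290 of them higher and 248 lower. With any other exposed array left out singly the count lay between 758 and 1250. The preponderance of lower probes was thus present with all arrays (33.4% of the 913 were higher) and absent without the 2 arrays (53.9% higher). It also depended on the scaling, since quantile normalization gave 451 higher of 903. The median difference over all tested probes was -0.11 with all arrays and 0.04 without the pair.

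**Figure D3:**
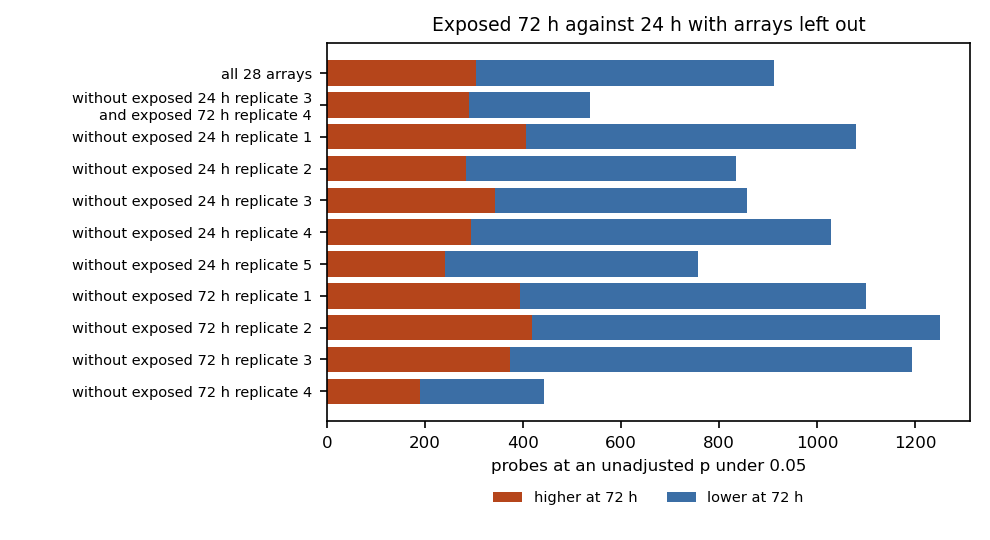
Bars give the number of probes at an unadjusted limma p under 0.05 in exposed 72 h against 24 h, split into higher and lower at 72 h, with all arrays and with arrays left out. The bar falls from 913 to 443 without exposed 72 h replicate 4 and to 538 without it and exposed 24 h replicate 3.

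Probes were also split by how many of the 9 exposed arrays detected them. The split uses the same arrays as the comparison, and a dim probe may have been admitted through one time alone, so its counts are a description. Among the 948 tested probes detected on 0 to 3 of the 9 exposed arrays, 2 were higher and 70 lower at an unadjusted p under 0.05, with a median difference of -0.43. Among the 5757 detected on 4 to 8 arrays, 133 were higher and 334 lower, with a median of -0.20. Among the 4787 detected on all 9 arrays, 170 were higher and 204 lower, with a median of 0.02. The shares called were 7.6%, 8.1% and 7.8% in that order, against 7.94% of all tested probes. Without the 2 arrays the dim class turned, to 40 higher and 20 lower with a median of 0.26. The middle class turned too, to 149 and 120 with a median of 0.07. The bright class stood at 101 and 108 with a median of -0.01. The shares were then 6.3%, 4.7% and 4.4%, against 4.68% of all. Differences of 2-fold or more were held by 20.8% of the dim class and 9.90% of the bright one; the control step gave 25% and 4.45%.

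None of the 4787 probes detected on all 9 exposed arrays passed, and their median absolute log2 difference was 0.37. Among those that differed by at least 2-fold, the 6 higher and 6 lower with the smallest p had adjusted p-values between 0.412 and 0.510. UF_Ppr_AF_106971 had the narrowest 72 h group, with levels of 1.05, 0.99, 1.15 and 1.27 against 0.50, -0.18, 0.44, 0.07 and -0.73 at 24 h. No arrays overlapped, and the transcript was 2.14-fold higher at 72 h (log2 1.1 ± 0.30, SE). Its control levels ran from 0.55 to 1.0 at 24 h and from 0.09 to 0.56 at 72 h, a step of -0.40 ± 0.30 (SE). Its exposed step exceeded the control step by 1.5 ± 0.42 (SE; limma unadjusted p = 0.00158, adjusted p = 0.9997). That difference did not pass, and the probe was also among those picked by their p in it.

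UF_Ppr_AF_117312 read -0.43, -0.41, -0.17, -0.24 and -0.23 at 24 h and 0.40, 0.60, 0.63 and 1.81 at 72 h. The groups were apart with all arrays, but the highest value came from exposed 72 h replicate 4, and the difference of 1.16 ± 0.33 (SE) was 0.87 without the 2 arrays. UF_Ppr_AF_112203 rested on that array less: it read -1.66, -1.62, -0.88, -1.12 and -1.44 at 24 h and -0.37, -0.16, 0.27 and 1.13 at 72 h, a difference of 1.56 ± 0.45 (SE) with and 1.38 ± 0.50 (SE) without the pair. In the controls its means were -0.92 at 24 h and -1.05 at 72 h.

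UF_Ppr_AF_106533 lay well over the 75th percentile on every array. It read 2.60, 3.32, 3.42, 2.93 and 3.15 at 24 h and 3.81, 3.80, 4.10 and 5.47 at 72 h, with no overlap and a difference of 1.21 ± 0.36 (SE). Here the control means also differed in the same direction, 3.08 ± 0.43 (SD, n = 4) at 24 h and 3.57 ± 0.39 (SD, n = 5) at 72 h. For UF_Ppr_AF_114695 (1.92 ± 0.51, SE) and UF_Ppr_AF_116258 (1.08 ± 0.33, SE) exposed 72 h replicate 1 lay among the 24 h arrays.

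Among the bright probes lower at 72 h, UF_Ppr_AF_115753 had the smallest p. It read 1.85, 1.17, 1.61, 1.5 and 1.58 at 24 h and 0.82, -0.97, 0.52 and -1.48 at 72 h. The 24 h arrays lay close together. The 72 h arrays split into an upper pair, at 0.82 and 0.52, and a pair far below it, and all lay under every 24 h array. The difference was -1.82 ± 0.44 (SE; limma adjusted p = 0.412), and -1.40 ± 0.46 (SE) without the 2 arrays. The control means were 1.02 at 24 h and 1.34 at 72 h.

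UF_Ppr_AF_117110 and UF_Ppr_AF_101957 also had no overlap. The first read -0.76, -1.36, -0.31, -0.60 and -0.16 at 24 h and -1.99, -1.76, -1.58 and -2.45 at 72 h, a difference of -1.31 ± 0.34 (SE). The second read 3.20, 1.2, 1.24, 1.14 and 2.15 at 24 h and -0.27, 0.84, 0.03 and -0.49 at 72 h, a difference of -1.76 ± 0.46 (SE). Its 24 h spread was wide, with replicates 1 and 5 above the rest, and without the 2 arrays its difference was -1.72 ± 0.52 (SE).

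In UF_Ppr_AF_109040, UF_Ppr_AF_104226 and UF_Ppr_AF_109066 the times overlapped, with differences of -1.96 ± 0.47, -1.95 ± 0.50 and -1.85 ± 0.48 (SE). For all 12 of these bright probes the exposed 48 h mean lay between the 24 h and the 72 h mean, over 5 arrays except for UF_Ppr_AF_106533, with 4. Exposed 48 h replicates 1 to 4 differed from the 24 h and 72 h arrays in slide and scan day, so a time order cannot be told apart from these. Exposed 48 h replicate 1 also had bright corners at 17.9 and 201 spots marked non-uniform. The direction of the difference between 24 h and 72 h was the same on all 3 slides holding both times, and without the 2 arrays, for each of the 12. Since these probes were picked by their p in this same comparison, their shared direction across subsets of its arrays is a description.

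**Figure D4:**
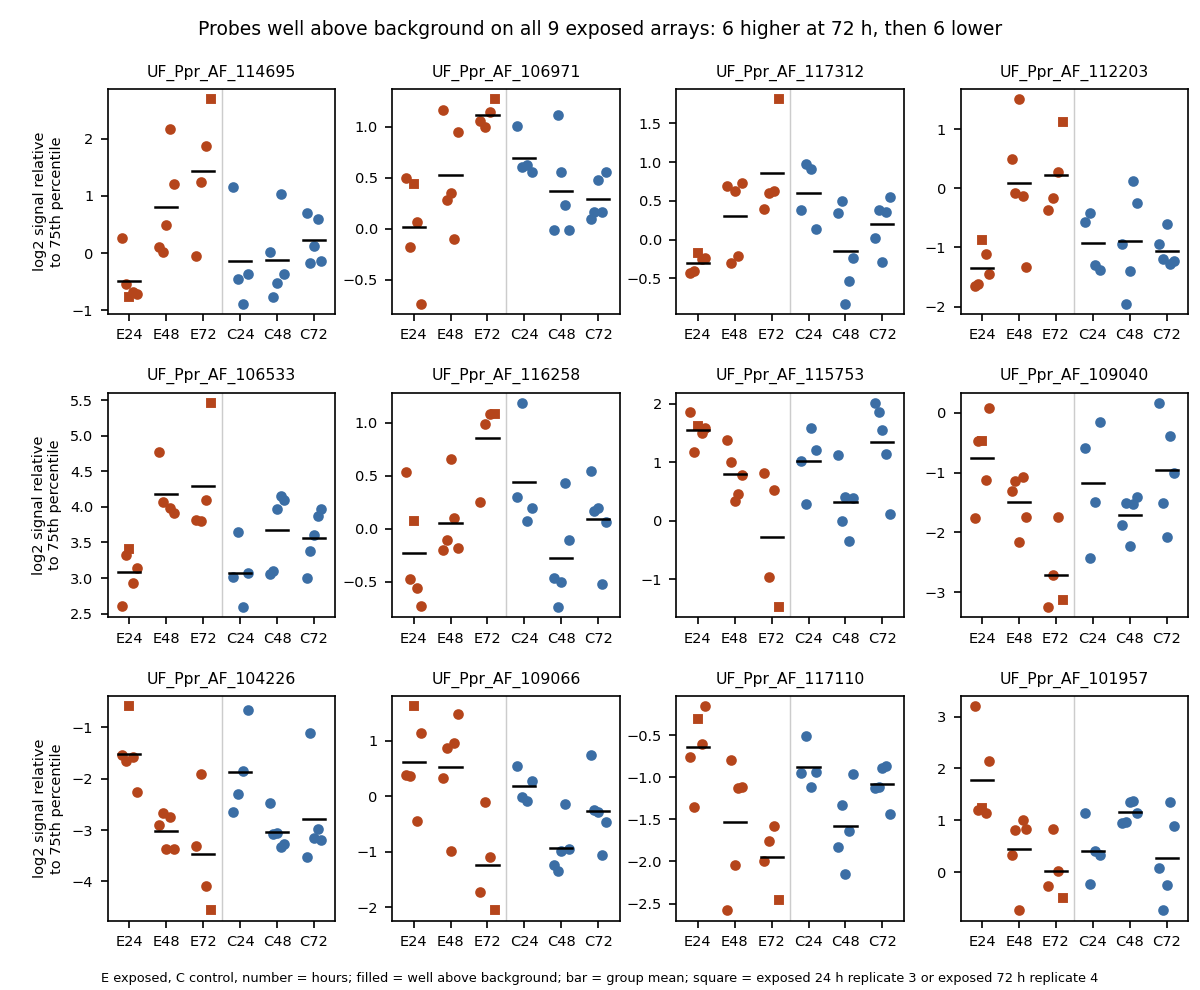
Each panel is 1 of the 12 bright probes, with 1 point per array, log2 signal relative to the array's 75th percentile on the y axis, the 6 groups on the x axis and bars at the group means. The first 6 panels were higher at 72 h in exposed liver and the last 6 lower. In 7 of the 12 there is no overlap between exposed 24 h and 72 h points, against 2.08% of 10933 probes over the array. The 12 were picked by their p in this same comparison, which favours such separation.

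Several of the 10 probes with the smallest p among those higher at 72 h were not detected on every exposed array. UF_Ppr_AF_110216 read -5.89, -3.74, -3.31, -6.79 and -7.48 at 24 h and -0.90, -3.68, 0.38 and -3.76 at 72 h. Replicates 1 and 3 at 72 h were far above all 24 h arrays and the other 72 h arrays were not. The difference was 3.45 ± 0.92 (SE; limma adjusted p = 0.455) and became 4.57 ± 0.97 (SE; limma adjusted p = 0.252) without the 2 arrays. It was 0.68 with normexp, and the probe was detected on 1 of 5 arrays at 24 h. UF_Ppr_AF_105568 read -0.76, -1.36, -2.06, -2.11 and -3.69 at 24 h and 0.14, -0.40, -0.52 and 0.89 at 72 h, with no overlap and a difference of 2.02 ± 0.52 (SE). Its exposed 48 h mean, -0.24, was near the 72 h mean of 0.03, and all control means lay between -1.03 and -0.82. The 48 h mean carries the slide and scan-day limit given above. UF_Ppr_AF_105984 had no overlap of its read levels either, at -5.13 to -2.96 over the 24 h arrays and -2.91 to -1.86 over the 72 h arrays. It was detected on 2 of 5 arrays at 24 h, and its difference was 0.38 with normexp, so this separation is not settled.

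Of the other named probes higher at 72 h, UF_Ppr_AF_110629 was higher by 1.86 ± 0.53 (SE), with its spot on exposed 72 h replicate 4 left out as non-uniform. UF_Ppr_AF_118571 was higher by 0.99 ± 0.29 (SE) and UF_Ppr_AF_110166 by 1.2 ± 0.35 (SE), both without overlap. At 24 h UF_Ppr_AF_110166 was detected on 3 of 5 arrays, and its difference was 0.27 with normexp. On the lower side UF_Ppr_AF_109424, UF_Ppr_AF_115395, UF_Ppr_AF_113830, UF_Ppr_AF_113710 and UF_Ppr_AF_107487 showed no overlap of their read levels, with differences from -2.86 to -1.40 and adjusted p-values from 0.224 to 0.455. At 72 h they were detected on 2, 0, 2, 1 and 3 of 4 arrays in that order. None was detected on 24 h replicate 3, whose read levels of -3.41 to -3.04 are bounds. Neither the separation nor the sizes of these differences are thus settled. With normexp the differences lay from -1.02 to -0.66. UF_Ppr_AF_115395 was detected on 0 of 4 arrays at 72 h. Its lower-bound ratio was 1.63 with 24 h replicate 3, undetected there, left out, and 1.86 with it. Replicate 1 at 24 h was also undetected but stayed in that mean, so the bound is approximate. This probe too was admitted to the test only through detection in the exposed 24 h group, where it is high. That choice favours a lower 72 h level.

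Over the whole array, complete separation of the exposed times was found for 227 of 10933 probes with no left-out spot (2.08%), 78 higher and 149 lower at 72 h. The control times were separated for 405 probes (3.70%), 108 higher and 297 lower. With the 2 arrays left out, which leaves 4 arrays against 3 and makes separation easier, the exposed count was 693 (6.34%), 333 higher and 360 lower. Correlations of whole profiles showed no more likeness within a time than between times: the mean Pearson r over pairs of exposed arrays was 0.887 within and 0.889 between, described over the same 10933 probes.

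Detection itself gave few switches. Of all 15208 probes, 13 were detected on 0 of 5 exposed arrays at 24 h and on 4 of 4 at 72 h, and 0 showed the opposite. Exposed 24 h replicate 3, with its 5127 detected probes, limits how many could be detected on all 5. Between the control times, 1 probe gained detection on all arrays and 4 lost it. Of these 13, 11 were detected on at least 1 control array at 24 h, and 2 had a bound over 2-fold: UF_Ppr_AF_114578, at 2.92-fold higher at 72 h, and UF_Ppr_AM_120118, at 2.29-fold. Without the 2 arrays the bounds were 1.60 and 3.45. Neither probe passed with all arrays (limma adjusted p = 0.510 and 0.580) or without the 2 arrays (0.969 for both). Both were picked for their bound, after the values were seen. With the 2 arrays left out, 68 of 15208 probes went from no detection at 24 h to detection on all 3 arrays at 72 h, and 2 went the other way. In that set each 72 h array detected more probes in all (10827 to 11202) than each 24 h array (9216 to 10409). Whether the lean to gained detection goes beyond this was not tested, and the permutation test of detected probes was not repeated without the 2 arrays.

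Of the 6 probes higher at 72 h with a bound over 2-fold in that reduced set, some were looked at singly, again after their values were seen. UF_Ppr_AF_117397, with a bound of 2.99-fold, read -0.43 on 72 h replicate 1 but -4.54 and -4.66 on replicates 2 and 3. UF_Ppr_AF_109648, with 2.24-fold, read -1.72 on replicate 1 but -4.28 and -4.52 on those 2 arrays. For both, the bound rests mainly on replicate 1. UF_Ppr_AF_116751 read -5.57, -5.49, -7.13 and -6.54 at 24 h and -1.83, -3.58 and -2.72 at 72 h, a bound of 4.24-fold. With all 9 arrays the bound was 1.96-fold. UF_Ppr_AF_105393 read -5.94, -6.71, -6.91 and -6.51 at 24 h and -3.93, -3.49 and -3.58 at 72 h, a difference of 2.85 (limma adjusted p = 0.252) with a bound of 2.18-fold. On the 2 arrays left out, UF_Ppr_AF_105393 read -3.08 at 24 h and -6.75 at 72 h, neither well above background, and its difference over all 9 arrays was 1.4. Both UF_Ppr_AF_116751 and UF_Ppr_AF_105393 were admitted to the test only through detection in the exposed 72 h group, where they are high. That choice favours a higher 72 h level for both. In the other direction, UF_Ppr_AF_101633 was lower with a bound of 5.07-fold and UF_Ppr_AF_102919 with one of 2.96-fold on these 7 arrays. Neither passed there (limma adjusted p = 0.969 for both). All these bounds allow for undetected levels at the dim time but not for the spread between arrays. UF_Ppr_AF_101633 was detected on exposed 72 h replicate 4.

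The same step without phenanthrene gave 0 of 11492 passing probes (0%), and 473 at an unadjusted limma p under 0.05 (4.12%), 97 higher and 376 lower. Which step had more such probes depended on the setting: exposed and control gave 478 and 1025 with only the arrays compared in each fit, 868 and 1600 with array weights, and 538 and 646 without the 2 arrays. With the median of each array as the scale the control split turned to 410 higher of 543, so it has no settled direction. The 2 higher and 2 lower control probes with the smallest p were UF_Ppr_AF_115263, UF_Ppr_AF_117302, UF_Ppr_AF_118889 and UF_Ppr_AF_113552. UF_Ppr_AF_117302, a bright transcript, had control means of 2.89 at 24 h and 3.68 at 72 h, while its exposed means were 3.47 and 3.53. UF_Ppr_AF_113552 had lower means at 72 h in both, with differences of -2.43 in controls and -1.48 in exposed liver. At 72 h it was detected on 2 of 5 control and 2 of 4 exposed arrays, so the sizes are not settled. With normexp the differences were -0.61 and -0.70, and without the 2 arrays the exposed one was -0.79.

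Tested directly, the exposed and control time steps did not differ for any probe after adjustment (0%), with all arrays or without the 2 arrays (0%). At an unadjusted limma p under 0.05, 457 probes differed (3.98%), and 565 without the 2 arrays (4.92%), where the smallest adjusted p was 0.0955. Across the 11492 probes the exposed and control steps had a Pearson r of 0.15 and a Spearman rho of 0.20, and 0.08 and 0.04 without the 2 arrays; probes share arrays and are not independent replicates. An unadjusted p under 0.05 in both steps was found for 48 probes, 5.26% of the exposed list (4.12% of all tested probes are in the control list) and 10.1% of the control list (7.94% of all are in the exposed one). Of the 48, 41 had the same sign, and both lists lean to lower probes, 608 of 913 and 376 of 473.

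The probes with the smallest p in the difference of steps had means that differed in opposite directions with and without phenanthrene. Picking by that difference favours steps of opposite sign, and none passed, so this is a description. UF_Ppr_AF_107097 had exposed levels of -1.27, -1.26, -0.98, -2.31 and -2.15 at 24 h and -3.07, -3.81, -3.23 and -3.47 at 72 h, with no overlap. Its control mean was -3.76 ± 1.30 (SD, n = 4) at 24 h, where 2 of 4 arrays detected it, and -1.74 ± 1.44 (SD, n = 5) at 72 h. UF_Ppr_AF_114809 and UF_Ppr_AF_111678 likewise had a lower exposed mean and a higher control mean at 72 h, from 0.69 to -0.28 against 0.10 to 1.01, and from -2.44 to -3.58 against -3.29 to -2.28. On the other side UF_Ppr_AF_102272 had a higher exposed mean at 72 h, -2.58 against -3.55, and a lower control mean, -4.44 against -2.41. With normexp its exposed step was 0.04. UF_Ppr_AF_106971 and UF_Ppr_AF_110216 are given above.

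**Figure D5:**
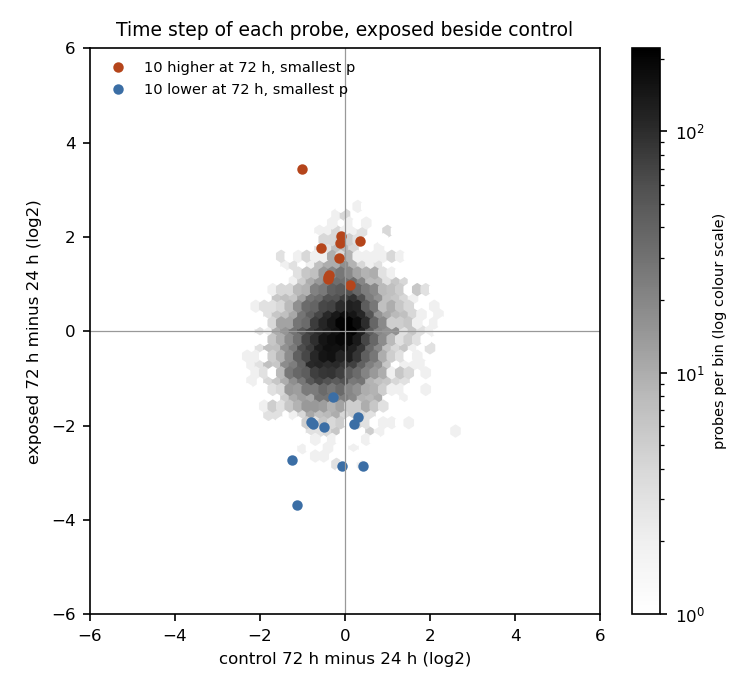
Each grey bin counts tested probes (log colour scale) by their control step on the x axis and their exposed step on the y axis, both log2 differences of 72 h minus 24 h; coloured points are the 10 higher and 10 lower probes with the smallest p in the exposed step. The cloud shows little slope (Pearson r 0.15), and the coloured points spread along the exposed axis, by which they were chosen, with control steps between -1.26 and 0.43.

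The arrays set how firmly these values can be read. The median SE of a probe's exposed step was 0.53, and 15.1% of probes had a 95% confidence interval inside 2-fold in both directions, against 69.2% inside 4-fold. For most probes a 2-fold difference between the exposed times could therefore not be seen or set aside with 5 and 4 arrays.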

How the data were processed

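Each array was scanned and read with Agilent Feature Extraction 10.7.1.1, per the file headers. The deposited scanner tables give a processed signal intensity per spot, background-subtracted by that software. The authors' deposited series-level table of log2 values was used as an alternative only; no source used here states its normalization, and its column for exposed 24 h replicate 5 has fewer values and a higher median. From 15744 spots, 536 control spots and spots marked as outliers were left out. Signals were set to log2 and the array's 75th percentile subtracted. The means of the 6 groups over 28 arrays were fitted with limma 3.58.1 in R 4.3.3 (22 residual degrees of freedom, two-sided, Benjamini-Hochberg at 0.05 over all 11492 tested probes), and the fit was tested on simulated data. Depth has no meaning for arrays; their number limits the precision. A lower-bound fold sets the brighter group's mean against the dim group's mean of, per array, the lowest detected level or the probe's own level, whichever is higher. Undetected arrays of the brighter group enter its mean at their read level, so the bound is then approximate. Named probes were the 10 higher and 10 lower by smallest p in the exposed step, 6 and 6 bright ones with at least 2-fold difference, 3 and 3 in the difference of steps and 2 and 2 in the control step. Members and lists were chosen with earlier results of these data known. Pathway and marker lists matched 0 probes and were not used. Replicate numbers follow accession order and pair nothing. No sequence of any probe was used here.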

Additional observations from a re-analysis of the deposited data

Results flagged for a closer look

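Within groups of 4 to 10 arrays, 96 sets of values were examined and 14 held an array far from the others by Dixon's criterion; chance flags about 1 group in 20. Of the 14, 6 concern whole arrays. The 75th percentile of signal reached 487.1 for exposed 24 h replicate 4, while its group's other arrays had 143.1 to 241.6, and 1253 on exposed 72 h replicate 4 against 213.8 to 342.7. Exposed 24 h replicate 3 had 5127 detected probes and exposed 72 h replicate 4 had 8865. The latter array also stood apart by bright-corner signal, at 19.0 on the log2 scale, and by its 498 non-uniform spots.

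The other 8 concern single probes, in log2 units relative to the 75th percentile. Exposed 24 h replicate 1 read 0.27 for UF_Ppr_AF_114695, with the others at -0.77 to -0.54, and -1.81 for UF_Ppr_AF_109424, with the others at -3.70 to -3.39. Exposed 24 h replicate 4 read -4.98 for UF_Ppr_AF_102272, where the others lay at -3.33 to -3.03. Exposed 72 h replicate 4 read 1.81 for UF_Ppr_AF_117312 and exposed 72 h replicate 1 read 0.25 for UF_Ppr_AF_116258, against 0.40 to 0.63 and 0.99 to 1.08 on the rest. Among controls, 24 h replicate 1 read 1.0 for UF_Ppr_AF_106971, 72 h replicate 5 read 0.33 for UF_Ppr_AF_114809 and 72 h replicate 3 read -7.13 for UF_Ppr_AF_118889.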

How the results depend on the processing

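The count of 3 passing probes in the exposed step stayed at 3 with median scaling, with slide as a random block and at an adjusted p of 0.1, and was 2 with array weights. It was 1 with quantile normalization, with no filter on dim probes, with slide as a fixed block, with a trended and robust prior and without the 2 arrays that stood apart in detected probes. It was 0 with normexp, with only the arrays compared in the fit (unadjusted count 478), and with the authors' deposited table (smallest limma adjusted p 0.0985). It was also 0 with the filter on every array of a compared group. That filter removes the 3 passing probes before the test, so this 0 says nothing on them. Leaving out 1 array at a time gave 1 to 2: it was 1 without any one of 24 h replicates 2, 3, 4 and 5 and 72 h replicates 1, 3 and 4. UF_Ppr_AF_106564 passed in each of these single-array fits. Settings added after seeing the data (the authors' table less its column for exposed 24 h replicate 5, only the exposed arrays less the pair, and normexp less the pair) each gave 0, and the bounds without exposed 24 h replicate 3 were added then too. Within slides 1 and 2 the count was 0, and within slide 5 it was 303, 242 of them higher, from 24 h replicate 5 against 72 h replicates 3 and 4; the cause was not tested, and the lone sample is assumed to vary like the other groups. The 0 of the control step and the 0 of the difference changed only within slide 1, where both 72 h groups were single arrays. No named probe of the exposed step reversed its sign in any alternative. Scaling moved the median exposed step from -0.11 to -0.01 (median) and 0.02 (quantile), the median control step from -0.15 to 0.13 and -0.02, and the higher share of the difference from 226 of 457 to 111 of 569 (median). The unadjusted control count of 473 ranged from 203 (normexp) to 1600 (array weights). The labels carry no replicate numbers to pair arrays by, and slide was the block.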
